A study of Mus musculus with 162 samples.

Results

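The calsyntenins are a family of 3 genes, Clstn1, Clstn2 and Clstn3, and all 3 were found among the 22879 genes of the counts table. They were taken by name, as a family, and not by their values, though earlier results of these data were known. Their transcripts were counted in 162 neural cells of embryonic mice aged E17.5 to E18.5, in a series that concerns the splicing of neurexins. A patch-clamp pipette took up cytosol from 1 cell at a time, and each cell was sequenced as 1 library. Every cell came from a Cre driver line: 22 cells from Lhx6 (which encodes a transcription factor of interneurons), 18 from Nex (another name of Neurod6, active in glutamatergic neurons) and 122 from Htr3a (which encodes a serotonin receptor of interneurons). Such a line marks cells by the activity of 1 promoter, which need not stay within 1 cell type. No strain or treatment is named in the labels used here.

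The submitters passed 148 cells in quality control (17 Lhx6, 17 Nex, 114 Htr3a) and failed 14. They gave the passed cells 9 type labels: 12 Cajal Retzius (all Htr3a), 11 VZ-derived (1 Lhx6, 2 Nex, 8 Htr3a), 18 MGE-derived 1 (7 Lhx6, 11 Htr3a), 24 MGE-derived 2 (7 Lhx6, 17 Htr3a), 11 CGE-derived (all Htr3a), 4 GABAergic (1 Lhx6, 3 Htr3a), 33 Glutamatergic 1 (10 Nex, 23 Htr3a), 13 Glutamatergic 2 (1 Nex, 12 Htr3a) and 22 Undefined (1 Lhx6, 4 Nex, 17 Htr3a). The labels do not spell out their short forms. MGE and CGE were read as the medial and the caudal ganglionic eminence, the sources of cortical interneurons, and VZ as ventricular zone. No label names an animal or litter, so each group counted as 1 sample and no difference was tested. Levels are in CPM, which scale counts to a common library total, and are taken over a group's summed counts. Each difference is that of the log2(CPM + 1) values averaged over cells, first-named group minus second, given with the SD between cells. A gene was counted as higher or lower where that difference was at least 1 in size and a count of it was found in 10% or more of cells in 1 of the groups.

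Calsyntenins are single-pass membrane proteins with cadherin repeats in their outer part. Calsyntenin-1, also called alcadein-alpha, links vesicles to kinesin-1 motors through the kinesin light chains and takes part in axonal transport. It is cut by alpha- and gamma-secretase much as the amyloid precursor protein is, and it binds adaptors that the amyloid precursor protein binds too. Calsyntenin-3 acts at synapses and has been described as a postsynaptic partner of neurexins. Calsyntenin-2 is known for its part in inhibitory synapses and memory in mice.

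Clstn1 (ENSMUSG00000039953) lies on the plus strand at chr4:149586468-149648899 of build GRCm38, Clstn2 (ENSMUSG00000032452) on the minus strand at chr9:97444395-98033181 and Clstn3 (ENSMUSG00000008153) on the minus strand at chr6:124430759-124464794. Their annotated exons cover 4662, 5691 and 4968 bases. The Clstn2 locus overlaps 2 annotated genes, Gm37661 on its own strand and the antisense gene 4921534H16Rik, and neither was a row of the counts table. Whether counting used strand is not given in the sources used here, so reads of Clstn2 and its antisense partner cannot be told apart. The members shared no stretch of 31 bases with each other, and transcripts of other genes held 4 of 4655 such stretches of Clstn1, 30 of 5653 of Clstn2 and 0 of 4988 of Clstn3.

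Their promoter windows were taken from RefSeq on GRCm38.p6 as 250 bases before to 50 after the annotated start. They are shown as a description, and any link of these sequences to the members' levels was not tested. Both strands were searched for TGACGTCA (the cyclic AMP response element), CANNTG (the E-box) and TATAAA (the TATA box); capitals mark the matches, and no 2 matches overlapped.
Clstn1, chr4:149586218-149586517, plus strand: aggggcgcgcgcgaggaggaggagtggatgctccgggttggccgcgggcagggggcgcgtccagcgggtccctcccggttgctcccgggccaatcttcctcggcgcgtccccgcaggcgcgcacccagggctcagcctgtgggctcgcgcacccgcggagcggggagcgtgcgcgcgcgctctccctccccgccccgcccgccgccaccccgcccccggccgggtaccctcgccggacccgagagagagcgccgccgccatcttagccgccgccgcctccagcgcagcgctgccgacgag
Clstn2, chr9:98033118-98033417, minus strand: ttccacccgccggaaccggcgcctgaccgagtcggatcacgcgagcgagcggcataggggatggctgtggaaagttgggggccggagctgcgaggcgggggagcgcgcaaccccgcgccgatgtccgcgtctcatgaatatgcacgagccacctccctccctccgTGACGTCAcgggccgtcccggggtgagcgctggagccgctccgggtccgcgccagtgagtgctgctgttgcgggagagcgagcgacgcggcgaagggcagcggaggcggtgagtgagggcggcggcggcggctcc
Clstn3, chr6:124464735-124465034, minus strand: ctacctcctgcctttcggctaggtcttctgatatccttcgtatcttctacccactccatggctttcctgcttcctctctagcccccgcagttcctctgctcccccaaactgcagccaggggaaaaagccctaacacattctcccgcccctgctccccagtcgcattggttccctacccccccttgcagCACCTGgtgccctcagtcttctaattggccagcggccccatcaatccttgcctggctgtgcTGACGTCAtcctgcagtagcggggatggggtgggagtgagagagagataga
The windows of Clstn1 and Clstn2 held 79.7% and 72.7% G and C bases with 48 and 43 CG dinucleotides, against 58.3% and 8 in that of Clstn3 (medians over 32817 windows, 52.7% and 7). A TGACGTCA match began 85 bases before the start of Clstn2 and 1 base before that of Clstn3, where it spanned the start. Such a match was found in 1.79% of all windows. The Clstn3 window also held 1 CANNTG match, 62 bases before the start, as did 72.3% of windows. The Clstn1 window matched none of these letters, and TATAAA, found in 13.6% of windows, was in none of the members' windows. A second annotated start of Clstn3, with the window chr6:124462695-124462994, held no match. That window had 53.0% G and C bases and 6 CG dinucleotides. A match describes letters in these windows and is not a measured binding site.

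Passed cells held 1710224 to 24836041 counts in 2066 to 14810 genes. In the 12 Cajal Retzius cells, all 6 markers listed for that type were found in 50% or more of the cells at a summed 12710 CPM, with Reln in 12 of 12 cells at 10150 CPM. In GABAergic-class cells 5 to 7 of 7 GABAergic markers, and in Glutamatergic 1 and 2 cells 7 and 6 of 8 glutamatergic markers, reached 50% of the cells. In VZ-derived cells 0 of 8 ventricular zone markers did (summed 237 CPM), while 6 of 8 glutamatergic markers did (summed 1892 CPM). The glutamatergic markers summed to 1489 and 1415 CPM in Glutamatergic 1 and 2 cells. Neurod6 was found in 10 of 11 VZ-derived cells, so that label is used here as a label only. Microglial markers summed to 197 CPM in Cajal Retzius cells, 28.6 to 2229 CPM in the GABAergic classes and 294 and 456 CPM in Glutamatergic 1 and 2 cells; their part in the results was not tested.

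Over the 148 passed cells Clstn1 was found most widely. It had a count in 126 cells, against 85 for Clstn2 and 86 for Clstn3. Per kilobase of exons, where levels of the members can be compared, Clstn1 stood at 51.7 CPM, Clstn2 at 21.3 CPM and Clstn3 at 17.51 CPM. These levels divide the members' transcripts into 57.1% Clstn1, 23.6% Clstn2 and 19.3% Clstn3. The order of the last 2 rested on the Cajal Retzius cells. Over the 136 other passed cells Clstn1 stood at 34.7, Clstn2 at 12.86 and Clstn3 at 17.55 CPM per kilobase. For Clstn2 and Clstn3 many cells held no count or close to none: the median cell had 3.05 CPM of Clstn2 and 4.90 CPM of Clstn3, against highest cells of 1250.0 CPM and 642 CPM.

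**Figure D1:**
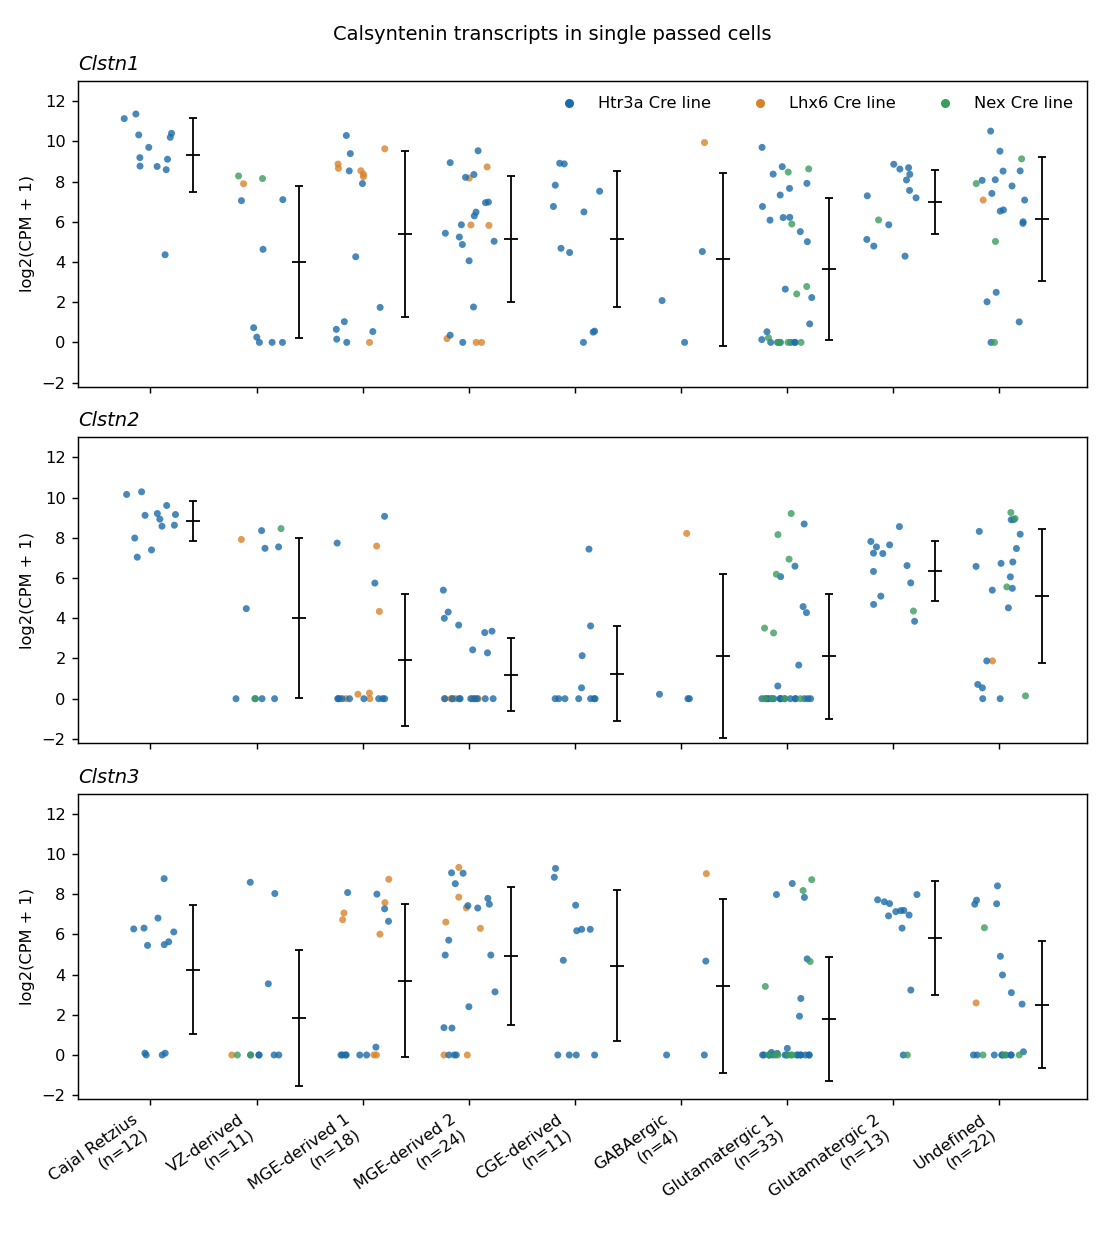
Level of each calsyntenin, as log2(CPM + 1) on the vertical axis, in every passed cell (points, coloured by Cre line) of each type label on the horizontal axis, with the mean and SD over cells as a black bar. All 12 Cajal Retzius cells sit above 4 for Clstn1 and above 7 for Clstn2, while most other labels split into cells at 0 and cells between 4 and 10.

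Clstn1, the transport-linked member, was highest in Cajal Retzius cells at 928 CPM of summed counts. The single cells ranged from 19.6 to 2628 CPM with a median of 709 CPM, and 11 of the 12 lay at 383 CPM or above. GABAergic cells followed at 267 CPM, a value that 1 of their 4 cells carried. Those 4 cells had 980 (cell 1, Lhx6 line), 21.9, 0 and 3.22 CPM, and without the first the level was 7.24 CPM. MGE-derived 1 cells stood at 252 CPM (lowest cell 0, median 269.5, highest 1247), Undefined cells at 203 CPM (0, 134 and 1461), and Glutamatergic 2 cells at 182 CPM (18.6, 155 and 462). CGE-derived cells had 149.5 CPM (0, 88.9 and 480), MGE-derived 2 cells 137 CPM (0, 55.8 and 738), Glutamatergic 1 cells 102 CPM (0, 5.26 and 830) and VZ-derived cells 92.6 CPM (0, 23.8 and 309.5). Only the step from Cajal Retzius cells to the next label was larger than the SD between cells of both labels, at 5.19 on the log2 scale against SDs of 1.82 and 4.29. The other 7 neighbouring pairs in this order did not differ beyond their spread, and 4 of the 8 steps ran the other way in the mean of log2 values. By that mean the label nearest to Cajal Retzius cells was Glutamatergic 2 and not GABAergic cells, which averaged 4.13. Glutamatergic 2 cells averaged 6.98 ± 1.59, beside 9.32 ± 1.82 in Cajal Retzius cells, a smaller difference of 2.34.

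As a ratio of the highest to the lowest label, Clstn2 varied most of the 3 members. It stood at 538 CPM in Cajal Retzius cells, with single cells from 131 to 1250.0 CPM and a median of 522 CPM, and every one of the 12 cells held a count. Undefined cells had 142 CPM (lowest cell 0, median 55.8, highest 611), Glutamatergic 2 cells 114 CPM (13.5, 97.6 and 377) and VZ-derived cells 113 CPM (0, 21.3 and 352). MGE-derived 1 cells had 93.5 CPM with a median cell at 0 and the highest at 535 CPM; 1 cell held 64.9% of these counts and 37.0 CPM remained without it. GABAergic cells had 79.1 CPM, nearly all from cell 1 at 296 CPM, beside 0.168, 0 and 0 CPM in the other 3. Glutamatergic 1 cells had 42.8 CPM (0, 0 and 593). CGE-derived cells had 15.6 CPM, of which 1 cell held 93.0% (1.20 CPM without it), and MGE-derived 2 cells 6.69 CPM (0, 0 and 41.3). The step below Cajal Retzius cells, 3.74 on the log2 scale against SDs of 1.00 and 3.33, was again the one step larger than both SDs, and the other 7 neighbouring pairs did not differ beyond their spread. By the mean of log2 values the nearest label was Glutamatergic 2, at 6.37 ± 1.49 beside 8.84 ± 1.00 in Cajal Retzius cells, a smaller difference of 2.48.

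Clstn3, the member tied to neurexins, showed a different order and no step that exceeded the spread between cells in any of the 8 neighbouring pairs. GABAergic cells were at 144 CPM, from 516, 0, 0 and 24.5 CPM in cells 1 to 4, and at 8.12 CPM without cell 1. CGE-derived cells had 139 CPM (lowest cell 0, median 71.4, highest 621; 73.3 CPM without the highest), MGE-derived 2 cells 133 CPM (0, 64.6 and 642) and Glutamatergic 2 cells 119 CPM (0, 139 and 251). MGE-derived 1 cells had 89.1 CPM (0, 31.9 and 425.5) and Cajal Retzius cells 85.3 CPM (0, 46.4 and 435), of which 1 cell held 56.1%. VZ-derived cells had 60.8 CPM (0, 0 and 383.5; 21.3 CPM without the highest), Undefined cells 49.1 CPM (0, 0.0581 and 340) and Glutamatergic 1 cells 42.8 CPM (0, 0 and 421). Cajal Retzius cells, highest for the other 2 members, were thus in the middle of the order for Clstn3. In the mean of log2 values the order of the labels changed. Glutamatergic 2 cells were then highest at 5.83 and GABAergic cells stood at 3.42, with Cajal Retzius cells still in the middle at 4.25.

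**Figure D2:**
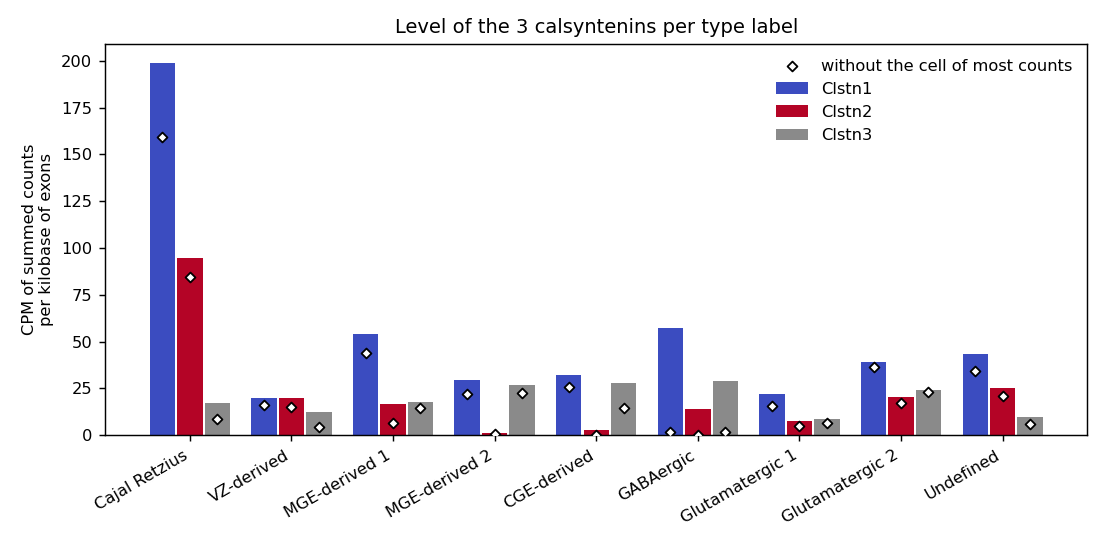
Summed level of each calsyntenin in CPM per kilobase of exons (bars) for the 9 type labels, with the level after leaving out the cell of most counts (diamonds). Clstn1 and Clstn2 stand at 199 and 94.6 CPM per kilobase in Cajal Retzius cells and at 57.2 and 24.9 CPM per kilobase or less elsewhere, and the GABAergic bars rest on 1 cell.

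The makeup of the family differed between labels. Per kilobase, the 3 members together reached 311 CPM in Cajal Retzius cells, against 38.1 CPM in Glutamatergic 1 cells and 90.6 CPM over all passed cells. In Cajal Retzius cells 64.0% of this was Clstn1, 30.4% Clstn2 and 5.53% Clstn3. MGE-derived 2 cells had 51.2% Clstn1, 2.05% Clstn2 and 46.8% Clstn3, and CGE-derived cells 51.1%, 4.36% and 44.6%. VZ-derived cells had 38.2% each of Clstn1 and Clstn2. In single cells, Clstn1 was the highest member per kilobase in 10 of 12 Cajal Retzius cells and Clstn2 in the other 2. Clstn2 exceeded Clstn3 per kilobase in 12 of these 12 cells. In MGE-derived 2 cells Clstn3 led in 12 of 24, Clstn1 in 11 and Clstn2 in 1.

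Cajal Retzius cells lie at the surface of the developing cortex and secrete reelin. They were then set against the 46 glutamatergic cells. Clstn1 had 19.6, 709 and 2628 CPM (lowest, median and highest cell) in Cajal Retzius cells, against 0, 50.7 and 830 CPM in glutamatergic cells. Clstn2 had 131, 522 and 1250.0 CPM in Cajal Retzius cells, against 0, 9.51 and 593 CPM in glutamatergic cells. The groups overlapped, but 6 of 12 Cajal Retzius cells lay above every glutamatergic cell for Clstn1 and 3 of 12 for Clstn2, and 1 of 46 glutamatergic cells reached the Cajal Retzius median for each gene. Clstn1 averaged 9.32 ± 1.82 in Cajal Retzius cells and 4.59 ± 3.44 in glutamatergic cells on the log2(CPM + 1) scale (SD between cells), a difference of 4.73. Clstn2 averaged 8.84 ± 1.00 in Cajal Retzius cells and 3.32 ± 3.36 in glutamatergic cells, a difference of 5.53. Both differences were larger than the SD within either group. By summed counts Clstn1 was 7.11-fold higher (928 against 130.4 CPM) and Clstn2 7.92-fold higher (538 against 68.0 CPM).

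Clstn3 averaged 4.25 ± 3.23 in Cajal Retzius cells and 2.94 ± 3.50 in glutamatergic cells, a difference of 1.31 within the spread, and 1.23-fold by summed counts. All 3 members were higher by the threshold of 1, in a comparison where 42.0% of 12722 genes passed it and 34.0% were higher. The members' count is to be read beside that share. By size, 96 genes had a larger difference than Clstn1 and 53 a larger one than Clstn2, against 3261 for Clstn3, and the median over all genes was 0.51. Cajal Retzius cells held a median of 6714 genes, against 5620.5 in glutamatergic cells. Among cells with 4000 to 8000 genes (8 against 30 cells), whose medians were 5934 and 5906 genes, the differences were 4.28 for Clstn1, 5.01 for Clstn2 and 0.05 for Clstn3. Against Glutamatergic 2 cells alone, Clstn1 and Clstn2 were still 2.34 and 2.48 higher, while Clstn3 was lower by 1.58. In the Htr3a line alone, which supplied all Cajal Retzius cells, the differences were 4.28, 5.67 and 1.10 for Clstn1, Clstn2 and Clstn3.

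**Figure D3:**
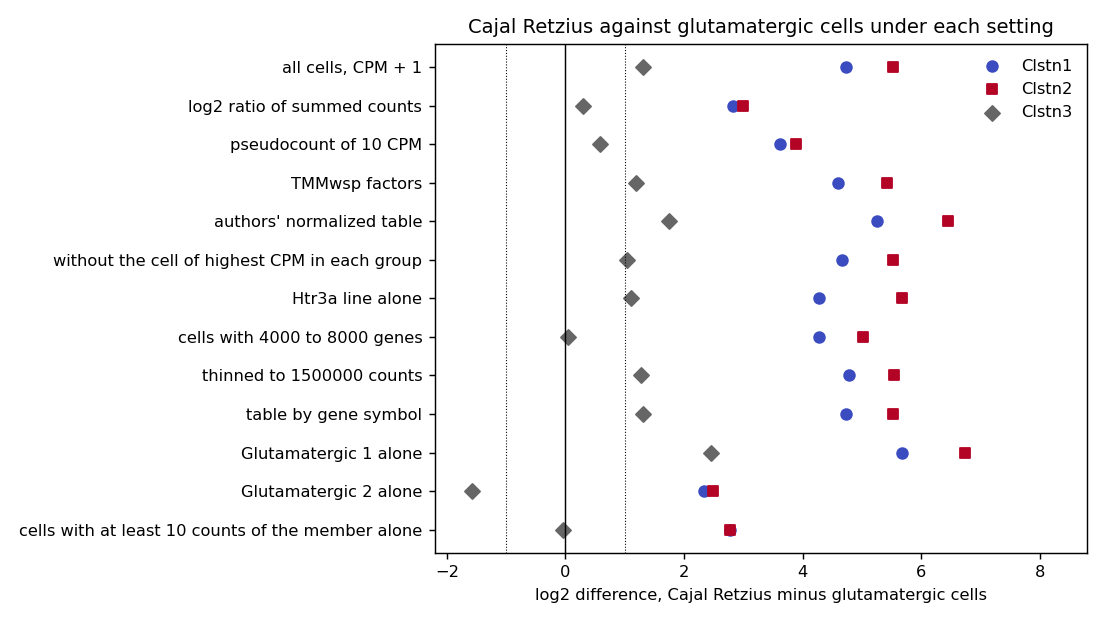
Difference between Cajal Retzius and glutamatergic cells in log2 units (horizontal axis) for each member under the setting of the text (top row) and 12 alternatives; the solid line marks 0 and the dotted lines the threshold of 1. Clstn1 and Clstn2 stay between 2.34 and 6.73, and Clstn3 runs from -1.58 to 2.45.

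Against all 136 other passed cells the pattern of these 2 members was similar. For Clstn1, 7 of 136 other cells reached the Cajal Retzius median of 709 CPM: 2 MGE-derived 1 cells, 2 Undefined cells, and 1 each of the MGE-derived 2, GABAergic and Glutamatergic 1 labels. For Clstn2, 3 of 136 reached the median of 522 CPM, 1 each of MGE-derived 1, Glutamatergic 1 and Undefined, and none of the 24 MGE-derived 2 cells reached even the lowest Cajal Retzius cell. For Clstn3, 51 of 136 reached the Cajal Retzius median. Clstn1 was low in 1 Cajal Retzius cell, cell 3, at 19.6 CPM; that cell also had the lowest Clstn2, at 131 CPM, and 0.0620 CPM of Clstn3, from 16119044 counts in all.

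**Figure D4:**
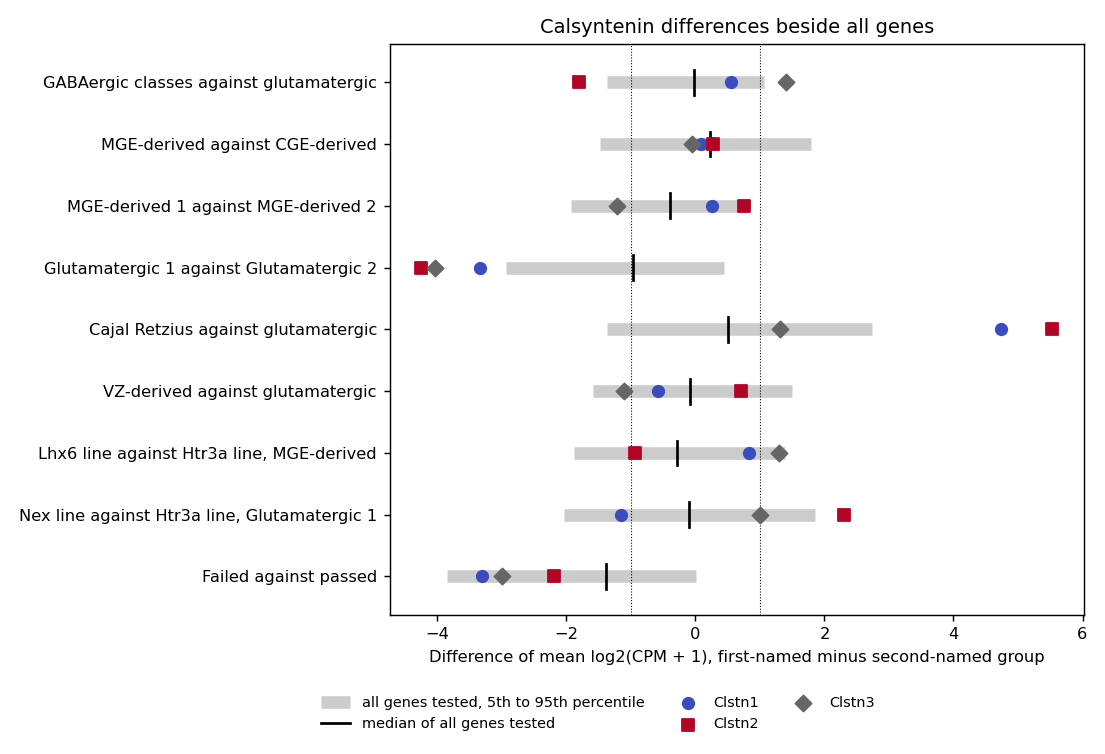
Difference of the mean log2(CPM + 1), first-named minus second-named group, for the 3 calsyntenins (symbols) in 9 comparisons, over the 5th to 95th percentile of all genes tested (grey) and their median (black tick). Clstn1 and Clstn2 lie right of the grey range for Cajal Retzius cells, and all 3 members lie left of it for Glutamatergic 1 against Glutamatergic 2 cells.

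The GABAergic classes (57 MGE-derived, CGE-derived and GABAergic cells) differed from the 46 glutamatergic cells in opposite directions for Clstn2 and Clstn3. Clstn2 had a count in 21 of 57 GABAergic-class cells and in 26 of 46 glutamatergic cells. It averaged 1.51 ± 2.58 in GABAergic-class cells and 3.32 ± 3.36 in glutamatergic cells, a difference of -1.81 (39.9 against 68.0 CPM). Clstn3 had a count in 38 of 57 and 24 of 46 cells and averaged 4.34 ± 3.61 in GABAergic-class cells and 2.94 ± 3.50 in glutamatergic cells, a difference of 1.40 (123.5 against 69.6 CPM). Clstn1 differed by 0.55 (185 against 130.4 CPM). Each difference was smaller than the SD between cells. The threshold was passed by 2 of 3 members, against 15.8% of 13139 genes, 9.74% lower and 6.07% higher; 329 genes had a lower difference than Clstn2 and 321 a higher one than Clstn3. These values hung on the glutamatergic label used. Against Glutamatergic 2 cells alone all 3 members were lower in the GABAergic classes, at -1.84 for Clstn1, -4.86 for Clstn2 and -1.49 for Clstn3. Against Glutamatergic 1 cells alone Clstn1 and Clstn3 were higher, by 1.49 and 2.54, and Clstn2 differed by -0.61, under the threshold. By the ratio of summed counts Clstn2 differed by -0.77 and Clstn3 by 0.83, and in the Htr3a line alone Clstn3 by 0.77, all under the threshold.

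Within the glutamatergic cells all 3 members were lower in Glutamatergic 1 than in Glutamatergic 2 cells. Clstn1 was found in 23 of 33 Glutamatergic 1 cells and 13 of 13 Glutamatergic 2 cells, Clstn2 in 13 of 33 and 13 of 13, and Clstn3 in 13 of 33 and 11 of 13. The differences were -3.34 for Clstn1, -4.25 for Clstn2 and -4.03 for Clstn3, the last 2 larger than either SD (3.12 and 1.49 for Clstn2, 3.07 and 2.84 for Clstn3). By summed counts the gaps were smaller, at 102 against 182 CPM for Clstn1, 42.8 against 114 CPM for Clstn2 and 42.8 against 119 CPM for Clstn3. In this comparison 49.9% of 12564 genes passed the threshold and 48.7% were lower, with a median over all genes of -0.97. Glutamatergic 1 cells held a median of 4954 genes, against 7585 in Glutamatergic 2 cells. The part of this gap in the members' differences was not tested. A lower difference than the member's was found for 307 genes for Clstn1, 44 for Clstn2 and 68 for Clstn3. Among cells with at least 10 counts of the member (12 and 13 cells for Clstn2), Clstn2 differed by -0.60, beside -4.25 over all cells.

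Against all glutamatergic cells, the differences of VZ-derived cells were smaller than the SD between cells. Clstn1 averaged 4.01 ± 3.78 in VZ-derived cells and 4.59 ± 3.44 in glutamatergic cells, and Clstn2 4.02 ± 3.99 in VZ-derived cells and 3.32 ± 3.36 in glutamatergic cells; the differences were -0.58 and 0.71. Clstn3 was lower by the threshold, at -1.11, with a count in 3 of 11 VZ-derived and 24 of 46 glutamatergic cells; 26.3% of genes passed, 14.7% lower and 11.6% higher. The 2 glutamatergic labels gave different values. Against Glutamatergic 1 cells alone the differences were 0.36 for Clstn1, 1.91 for Clstn2 and 0.03 for Clstn3. Against Glutamatergic 2 cells alone they were -2.98, -2.34 and -4.00 for Clstn1, Clstn2 and Clstn3, the last larger than either SD (3.37 in VZ-derived and 2.84 in Glutamatergic 2 cells). The VZ-derived cells divided by line for Clstn1: the 2 Nex cells had 309.5 and 283 CPM and the Lhx6 cell 236 CPM, against 0 to 136 CPM in the 8 Htr3a cells, whose level was 37.97 CPM.

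Between the interneuron classes the members' differences were small beside the spread between cells. MGE-derived minus CGE-derived cells gave 0.09 for Clstn1, 0.27 for Clstn2 and -0.06 for Clstn3, so 0 of 3 members passed a threshold that 28.2% of 12753 genes passed, and each difference lay well within SDs of 2.37 to 3.75. By summed counts Clstn2 was 41.5 CPM in MGE-derived and 15.6 CPM in CGE-derived cells, values that 18.0 and 1.20 CPM replaced without the cell of most counts in each. Between MGE-derived 1 and MGE-derived 2 cells Clstn3 was lower, at -1.22, with 89.1 against 133 CPM and a count in 10 of 18 against 19 of 24 cells, 1 of 3 members against 25.2% of genes, 22.6% lower. Its sign turned to 0.55 among cells with 4000 to 8000 genes. Clstn2 differed by 0.75 in the mean of log2 values but 13.97-fold by summed counts (93.5 against 6.69 CPM), with a count in 7 of 18 and 8 of 24 cells. Clstn1 differed by 0.25. Of 8 microglial markers 5 were lower in MGE-derived 1 cells, at a summed 941 CPM (single cells 0 to 14500 CPM) against 1385 CPM in MGE-derived 2 cells (0 to 12020 CPM), and 2 of 5 erythrocyte markers were higher, at 182 CPM (0 to 2426) against 55.0 CPM (0 to 392). No marker of either list was at 0 throughout a group, and their part in these differences was not tested.

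Type labels could be compared between lines at 2 points. Among MGE-derived cells of the Lhx6 line (14 cells) and the Htr3a line (28 cells), Clstn3 was higher by 1.29 (141.5 against 107 CPM), 1 of 3 members against 29% of genes, 9.01% higher and 20% lower. Clstn1 differed by 0.83 and Clstn2 by -0.94. None of the 3 differences exceeded the SD between cells (3.56 and 3.6 for Clstn3). Of 9 alternatives, 2 ended the call of Clstn3, whose lowest value was 0.4. Beside these, 8 of 8 microglial markers were lower in the Lhx6 line, at a summed 0.693 CPM (single cells 0 to 9.02 CPM, Cx3cr1 and Aif1 at 0) against 1605 CPM in the Htr3a line (0 to 14500 CPM, none at 0). Of 5 erythrocyte markers 3 were higher in the Lhx6 line, at 271 CPM (0 to 2426) against 51.4 CPM (0 to 392), with none at 0. Their part in the line differences was not tested. Clstn2 had no count in the 7 MGE-derived 2 cells of the Lhx6 line, against 8.45 CPM and 8 of 17 MGE-derived 2 cells of the Htr3a line. The limit over the summed counts of these 7 cells is 0.0648 CPM (3 counts), which covers counting error only. As shares of cells the intervals overlap: 0 of 7 allows up to 40.96%, and 8 of 17 allows 22.98% to 72.19%. In MGE-derived 1 cells Clstn2 was found in 4 of 7 cells of the Lhx6 line (33.3 CPM) and 3 of 11 of the Htr3a line (120.3 CPM). Clstn1 in MGE-derived 1 cells was 364 CPM in the Lhx6 line and 201 CPM in the Htr3a line. In MGE-derived 2 cells Clstn1 ran the other way, at 111.8 CPM in the Lhx6 line and 143.4 CPM in the Htr3a line. Among Glutamatergic 1 cells of the Nex line (10 cells) and the Htr3a line (23 cells), Clstn2 was higher by 2.31 (84.8 against 27.9 CPM; 6 of 10 against 7 of 23 cells), Clstn3 by 1.00 (75.6 against 31.1 CPM) and Clstn1 lower, at -1.16 (69.0 against 114 CPM). All 3 passed, against 33.3% of genes (14.3% higher and 19.1% lower), and none of the differences exceeded the SD between cells. Of 9 alternatives, 5 ended the call of Clstn3, whose lowest value was 0.55, 4 that of Clstn1 and 1 that of Clstn2. Without the cell of most counts in each line the summed level of Clstn2 was 44.0 against 7.995 CPM, that of Clstn3 38.2 against 18.53 CPM and that of Clstn1 31.5 against 73.1 CPM. Of 5 erythrocyte markers 4 were lower in the Nex line, at a summed 3.61 CPM (single cells 0 to 22.3 CPM, Hba-a2 and Hbb-bt at 0) against 188 CPM in the Htr3a line (0 to 2029 CPM, none at 0), and their part was not tested. Lines, animals and batches cannot be told apart here.

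Of the 14 failed cells 6 held a count of any calsyntenin, against 141 of 148 passed cells. Clstn1 was found in 5 of 14 failed and 126 of 148 passed cells, Clstn2 in 3 of 14 and 85 of 148, and Clstn3 in 1 of 14 and 86 of 148. The differences were -3.31, -2.19 and -3.00, where 61.9% of genes passed the threshold, 61.8% lower, and the median over all genes was -1.39. Failed cells held a median of 2032.5 genes, against 5363 in passed cells. By summed counts Clstn2 was higher in failed cells, at 257 against 121 CPM. A single failed cell of the Lhx6 line held 99.3% of those counts, at 1969 CPM, above the highest passed cell.

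Counts of cells that held several members are to be read beside each member's own count of cells. Clstn1 was found in 126, Clstn2 in 85 and Clstn3 in 86 of the passed cells. Whether members shared cells more often than these shares alone give was not tested. Of 148 passed cells, 50 held a count of all 3 members, 56 of 2, 35 of 1 and 7 of none. All 12 Cajal Retzius cells and all 13 Glutamatergic 2 cells held both Clstn1 and Clstn2, and 10 and 11 of them held all 3. Of 33 Glutamatergic 1 cells 3 held all 3 members, 13 held 2, 14 held 1 and 3 held none. In the GABAergic classes 20 of 57 cells held Clstn1 with Clstn3 and no Clstn2, against 4 of 46 glutamatergic cells. Each member's own counts were 50, 21 and 38 of 57 and 36, 26 and 24 of 46 cells for Clstn1, Clstn2 and Clstn3. The 148 cells differed in library depth and in the number of genes found, which the members within a cell share. Across these cells Pearson's r of log2(CPM + 1) was 0.28 between Clstn1 and Clstn2. It was 0.11 between Clstn1 and Clstn3 and 0.08 between Clstn2 and Clstn3. Without Cajal Retzius cells the first was 0.15. With the number of genes per cell r was 0.35, 0.26 and 0.22 for Clstn1, Clstn2 and Clstn3.

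Genes with the most similar pattern were sought among 9368 genes with a count in at least 25% of passed cells. For Clstn2 they were Nhlh2 (r = 0.51), Cacna2d1 (0.49), Calb2 (0.46), Cntn2 (0.44) and Lhx2 (0.44). Nhlh2 encodes a transcription factor and Calb2 the calcium-binding protein calretinin; both are on the list of Cajal-Retzius markers, and their r with Clstn2 was 0.34 and 0.24 without the Cajal Retzius cells. Cacna2d1 encodes a calcium channel subunit, Cntn2 an axonal adhesion molecule and Lhx2 a transcription factor. For Clstn1 they were Usp33 (0.46), a deubiquitinase, Ralgds (0.44), Plpp1 (0.44), Diablo (0.42), a mitochondrial protein of apoptosis, and Cers5 (0.42), a ceramide synthase. For Clstn3 they were Gpsm1 (0.43), Tmem130 (0.41), Hsdl1 (0.41), Gprasp1 (0.41) and Csdc2 (0.40). No r across cells passed 0.51. Over the summed levels of 8 type labels, r with Clstn1 was -0.29 for Usp33, the closest to it across cells. The other genes named for Clstn1 had 0.84 (Ralgds), 0.47 (Plpp1), 0.7 (Diablo) and 0.15 (Cers5). In the order named above, r over labels was 0.67, 0.55, 0.77, 0.29 and 0.35 for Clstn2. For Clstn3 it was 0.39, 0.23, -0.07, 0.08 and 0.23.

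Genes linked to the transport, binding or cutting of calsyntenins were followed as 3 lists: 9 of kinesin-1 transport, 8 of the amyloid precursor family and its adaptors, and 8 secretase genes. The secretase list also holds Bace1, the beta-secretase, which is not among the secretases named above as cutting calsyntenin-1. In Cajal Retzius against glutamatergic cells 5 of 9, 4 of 8 and 4 of 8 were higher and none was lower, with medians of 1.27, 1.07 and 0.94 beside 0.51 over all genes and beside 34.0% of genes higher. By summed counts these medians were 0.28, 0.01 and -0.03, beside -0.08 over all genes. The kinesin-1 heavy chains Kif5c, Kif5b and Kif5a were 2.50, 2.39 and 1.83 higher, the light chain Klc1 1.39 and the motor adaptor Mapk8ip3 1.27. Aplp2, a relative of the amyloid precursor protein gene, was 4.14 higher (1340 against 362 CPM) with 12 of 12 against 39 of 46 cells, App itself 1.84, the adaptor Apbb1 1.37 and the relative Aplp1 1.33. Bace1, the beta-secretase, was 2.19 higher, Adam17, an alpha-secretase, 1.79, and the gamma-secretase subunit genes Ncstn and Psenen 1.18 and 1.02. By summed counts not all of these genes were higher. Psenen was at 36.0 CPM in Cajal Retzius cells, against 43.05 and 47.05 CPM in Glutamatergic 1 and 2 cells. Kif5c (393 against 266.5 and 426 CPM), Apbb1 (436 against 376 and 597) and Mapk8ip3 (320 against 353 and 249) lay between those labels. The other genes named as higher stood above both labels. Of the neurexins, Nrxn3 was lower, at -2.23 (0.0898 against 50.1 CPM, found in 2 of 12 and 26 of 46 cells) and Nrxn2 differed by -0.29.

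In GABAergic-class against glutamatergic cells, where Clstn3 was higher and Clstn2 lower, 0 of 9 kinesin-1 genes passed the threshold (median -0.60, or -0.44 by summed counts). Of the amyloid precursor list 5 of 8 were lower and 0 higher, against 9.74% of all genes lower (median -1.15 beside -0.02 over all genes; by summed counts -0.50 beside 0.04), namely Apbb2 (-1.92), Apbb1 (-1.55), App (-1.41), Apba3 (-1.20) and Apba1 (-1.11). Of the secretases 0 of 8 passed (median -0.11). Nrxn3 was 5.07 higher (417 against 50.1 CPM) and Nrxn2 1.10 higher. In Glutamatergic 1 against 2 cells 7 of 9 kinesin-1 genes, 6 of 8 of the amyloid precursor list and 6 of 8 secretases were lower, against 48.7% of all genes, with medians of -1.24, -1.79 and -2.13 beside -0.97 over all genes. By summed counts these medians were -0.43, -0.56 and -0.25, beside -0.08 over all genes. Klc4 (-2.91), Apba2 (-3.56) and Aph1b (-3.26) led these lists, less far than Clstn2 and Clstn3. In VZ-derived against glutamatergic cells Kif5c and Kif5a were 2.04 and 1.30 higher and Klc2 lower, at -1.04, 1 of 8 of the amyloid precursor list was higher (Aplp2, 1.37) and 2 lower (Apbb1 at -1.74 and Apbb2 at -1.32), and 0 of 8 secretases passed, against 11.6% of all genes higher and 14.7% lower.

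In MGE-derived against CGE-derived cells 0 of 9 kinesin-1 genes, 2 of 8 of the amyloid precursor list (Apbb1 at 1.23 and Aplp2 at 1.00) and 2 of 8 secretases (Bace1 at 1.53 and Ncstn at 1.37) were higher and none lower, against 17.4% of all genes higher, while no calsyntenin passed. In MGE-derived 1 against 2 cells 4 of 9, 2 of 8 and 4 of 8 genes of the 3 lists were lower and none higher, against 22.6% of all genes lower. They were Mapk8ip3 (-1.97), Kif5a (-1.70), Kif5c (-1.48) and Kif5b (-1.30), then Apbb1 (-3.33) and Aplp2 (-1.08), then Adam17 (-2.66), Adam10 (-1.35), Aph1b (-1.35) and Bace1 (-1.19). In the Lhx6 against the Htr3a line 2 of 9 kinesin-1 genes were lower (Kif5b at -1.15 and Mapk8ip1 at -1.05), 2 of 8 of the amyloid precursor list higher (App at 2.33 and Aplp1 at 1.21) and 4 of 8 secretases lower (Bace1 at -1.75, Adam17 at -1.61, Aph1a at -1.28 and Aph1b at -1.11), against 9.01% of all genes higher and 20% lower. In the Nex against the Htr3a line 1 kinesin-1 gene was higher (Kif5c at 1.17) and 3 lower (Mapk8ip3 at -3.37, Kif5a at -1.67 and Klc2 at -1.27), 1 gene of the amyloid precursor list higher (Apbb2 at 5.90, 620 against 41.7 CPM) and 2 lower (Apba2 at -1.07 and Apba1 at -1.06), and 1 secretase lower (Psenen at -1.37) and none higher, against 14.3% of all genes higher and 19.1% lower. In failed against passed cells 6 of 9, 7 of 8 and 7 of 8 genes of the 3 lists were lower and none higher, where 61.8% of all genes were lower and the median over all genes was -1.39.

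**Figure D5:**
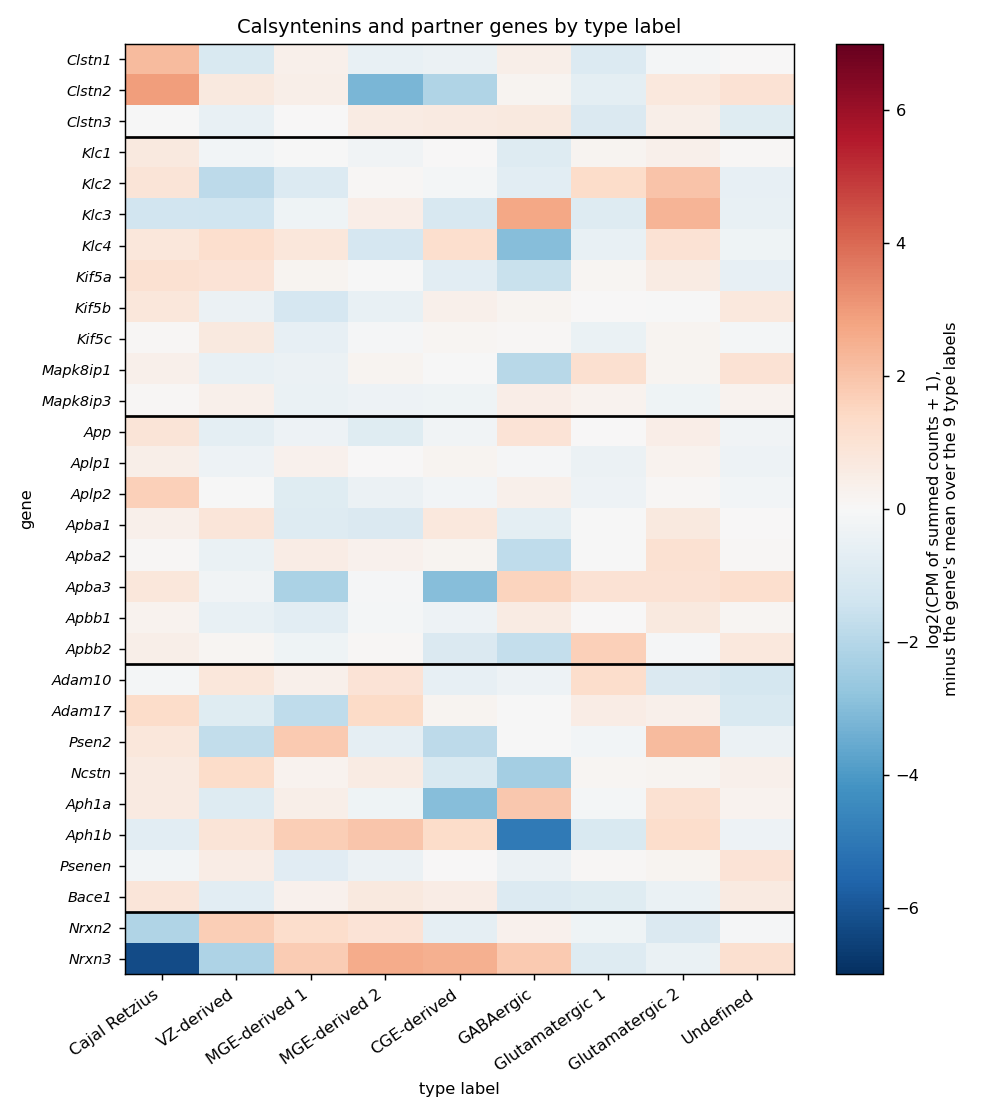
Summed level of the calsyntenins and of genes of transport, processing or binding (rows, black lines between lists) in each type label (columns), as log2(CPM + 1) minus the gene's own mean over the 9 labels, so that colours compare labels within a row and not rows. Clstn1, Clstn2 and Aplp2 are darkest red in the Cajal Retzius column, where Nrxn3 is darkest blue.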

How the data were processed

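RNA of 162 single cells was analysed. The submitters' processing notes name Trimmomatic, STAR, featureCounts and build GRCm38, with no versions. Tables of raw read counts were deposited by Ensembl identifier and, held here in part (9724 genes), by symbol. The authors' normalized signal table covers 148 passed cells and 22800 genes; in it all 444 calsyntenin values equalled the count over a cell-specific factor to within 0.1%; how that factor was set is not given in the sources used here. Of 22880 identifiers, 22570 matched a GENCODE M21 symbol and 310 did not, which left 22879 genes. The 3 members had equal counts in both count tables, and no 2 cells had identical counts.

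The members, the gene lists and the comparisons were chosen with earlier results of these data known. CPM were computed with each cell's own total. With no animal named, each group is 1 sample: no p-value was computed, and cells were not treated as replicates. Intervals of CPM (exact Poisson, 95%) and of shares of cells (exact Clopper-Pearson, 95%) cover counting error only, and reads counted with no molecular identifiers do not each stand for 1 molecule; in a type of 12 cells, 12 of 12 allows a share down to 73.5%, and the 144591 counts of Clstn1 in Cajal Retzius cells an interval of 923 to 932 CPM, far narrower than the spread between cells. The limit for a count of 0 is 3 counts. Genes most alike in pattern were the 5 with the highest Pearson's r; partner genes are named where they were counted, up to 3 per list or all where 5 or fewer were. The code was tested on simulated data. Alternatives were the ratio of summed counts, a pseudocount of 10 CPM, TMMwsp factors (edgeR 4.0.16), the authors' normalized table, the table by symbol, cells thinned to 1500000 counts, cells with 4000 to 8000 genes, the Htr3a line alone and leaving out the highest cell. Each Glutamatergic label alone, and cells with at least 10 counts of the member alone, were added after seeing the data. Python 3.11.15, pandas 2.3.3, scipy 1.17.1 and R 4.3.3 were used. Some genes are not reported here, and the lists are counted without them.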

Additional observations from a re-analysis of the deposited data

Results flagged for a closer look

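Single cells far from the others were sought by Dixon's criterion in 6 groups of 4 to 10 cells, which gave 17 sets of 1 member in 1 group with any spread. The criterion is set so that chance meets it in about 1 set in 20 of normally distributed values. The values here are often split between cells at 0 and cells well above, so that rate does not hold for them. Where all other cells are at 0, any single cell with a count meets the criterion. The 3 members of a group share their cells, and 3 values met it. Clstn2 in GABAergic cell 1, of the Lhx6 line, was 8.22 on the log2(CPM + 1) scale (296 CPM), against a next value of 0.22 among the other 3 cells. Clstn1 in MGE-derived 1 cell 6 was 0.00, the lowest of the 7 cells of the Lhx6 line with that label, against a next value of 8.24 and a median of 8.54. Clstn3 in Undefined cell 20 was 6.33 (79.7 CPM), against 0.00 in the other 3 Undefined cells of the Nex line. Whether these cells differ in how much cytosol was caught was not tested.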

How the results depend on the processing

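The higher Clstn1 and Clstn2 in Cajal Retzius cells kept their direction and stayed above the threshold of 1 under all 12 alternatives, from 2.34 to 5.68 and from 2.48 to 6.73. The lower Clstn3 in Glutamatergic 1 cells did so under all 10 (-4.99 to -1.0). Over 279 alternatives to the members' differences, 58 changed the call and 25 the sign. Against Glutamatergic 2 cells alone, Clstn3 turned to -1.49 in the GABAergic classes and to -1.58 in Cajal Retzius cells, and against Glutamatergic 1 cells alone to 0.03 in VZ-derived cells. Among cells with 4000 to 8000 genes, Clstn3 turned to 0.55 in MGE-derived 1 against 2 cells, Clstn1 to 0.07 in the Nex line and, with 2 failed cells, to 3.46 in failed cells. Among cells with at least 10 counts, Clstn3 turned to 1.14 in MGE-derived 1 against 2 cells, -0.05 in Cajal Retzius and 0.31 in VZ-derived cells, Clstn2 moved to -0.60 in Glutamatergic 1 against 2 cells, and in failed cells Clstn1 turned to 0.09 and Clstn2 to 1.56; with that minimum 15 passed cells, in place of 7, held no member. By summed counts Clstn2 was 1.08 higher in failed cells. The cause of these turns was not tested.

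By summed counts more genes passed the threshold: 4751 in place of 2077 for the GABAergic classes, 6591 in place of 3594 for MGE-derived against CGE-derived, 6772 in place of 3493 for MGE-derived 1 against 2, 5731 in place of 3223 for VZ-derived cells, 8089 in place of 4103 for the Lhx6 line and 7519 in place of 4168 for the Nex line. TMMwsp factors moved the median of all genes by over 0.1 in failed against passed cells only (-1.25 in place of -1.39). No paired analysis was possible because no label pairs cells and no test was made. With 4 to 33 cells a label, shares of cells are known only to within wide intervals, and a single cell can carry a summed level.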
